A study of Mus musculus with 6 samples.

Results

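Integrin genes were examined in a list of genomic regions drawn from ATAC-seq, an assay in which a transposase cuts open chromatin, of basal prostate stem cells of the mouse. The 10 genes, 6 encoding alpha chains (Itga6, Itga1, Itga2, Itgav, Itga8 and Itga9) and 4 encoding beta chains (Itgb4, Itgb1, Itgb6 and Itgb8), were picked by name, with earlier results on the same list known. They are 10 of the 21887 protein-coding genes on chromosomes 1 to 19, X and Y. A region was counted at a gene when its centre lay inside the gene span or within 100 kb of it. By this rule 23 of the 6502 regions in the list belonged to the 10 genes.

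The study had 6 libraries, 3 from naive and 3 from inflamed prostates. The naive libraries are labelled WT and control, and the inflamed ones POET3 and inflamed. POET3 mice express ovalbumin in the prostate, inflammation was started by transferring pre-activated splenocytes of OT-1 mice, and inflamed prostates were harvested after 7 days. The protocol names POET3 mice as the source of naive prostates too, so the labels leave the genotype of the naive group unclear, and as labelled, genotype and inflammation cannot be told apart. Cells of both groups were sorted freshly as CD45-, CD31-, Sca-1+ and CD49f+, without culture. CD49f is the product of Itga6, so every sorted cell of either group had to carry that integrin on its surface. Whether each library came from 1 animal or from pooled animals is not given in the sources used here.

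The list holds the chromosome, start and end of each region, in mm10, and no value per library. From an abbreviation in its name and a tool for differential tests among those the submitters name, it was read as a list of regions differing between the groups. It does not say which group was the more open at any region. No level, fold change or replicate error could therefore be given for any gene, the depth is unknown, and no test between naive and inflamed cells could be run. In bulk libraries a change in the mix of gated cells and a change within each cell cannot be told apart. Expression was not measured, so the labelled cell type could not be checked against its markers.

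Integrins are receptors made of an alpha and a beta chain that span the cell membrane and tie the extracellular matrix to the cytoskeleton. In stratified and pseudostratified epithelia the basal cells rest on a basement membrane. They hold on to its laminins through the alpha6-beta4 integrin of hemidesmosomes and through integrins with the beta1 chain, while integrins with the alphav chain bind and activate latent TGF-beta.

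Of the 10 integrin genes, 8 had at least 1 listed region within the 100 kb rule and 2, Itga6 and Itgb4, had none. The same count over all 21887 protein-coding genes gave 42.7% with a region. Long genes have more room for regions, and the integrin genes are long, with spans of 33.7 to 294 kb and a median of 91.8 kb against 17.2 kb for all protein-coding genes. Among the 6324 protein-coding genes whose span falls in that range, 54.7% had a region. Inside the gene span itself, 5 of the 10 integrin genes held a region, Itga1, Itga2, Itgb6, Itgb8 and Itga9. That share was 10.2% over all protein-coding genes and 21.8% over those with a span in the range of the 10. The genes in that range, called of like span below, were not matched to the 10 by length within it. These shares describe the genes and carry no test, since the genes were chosen with earlier results known.

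**Figure D1:**
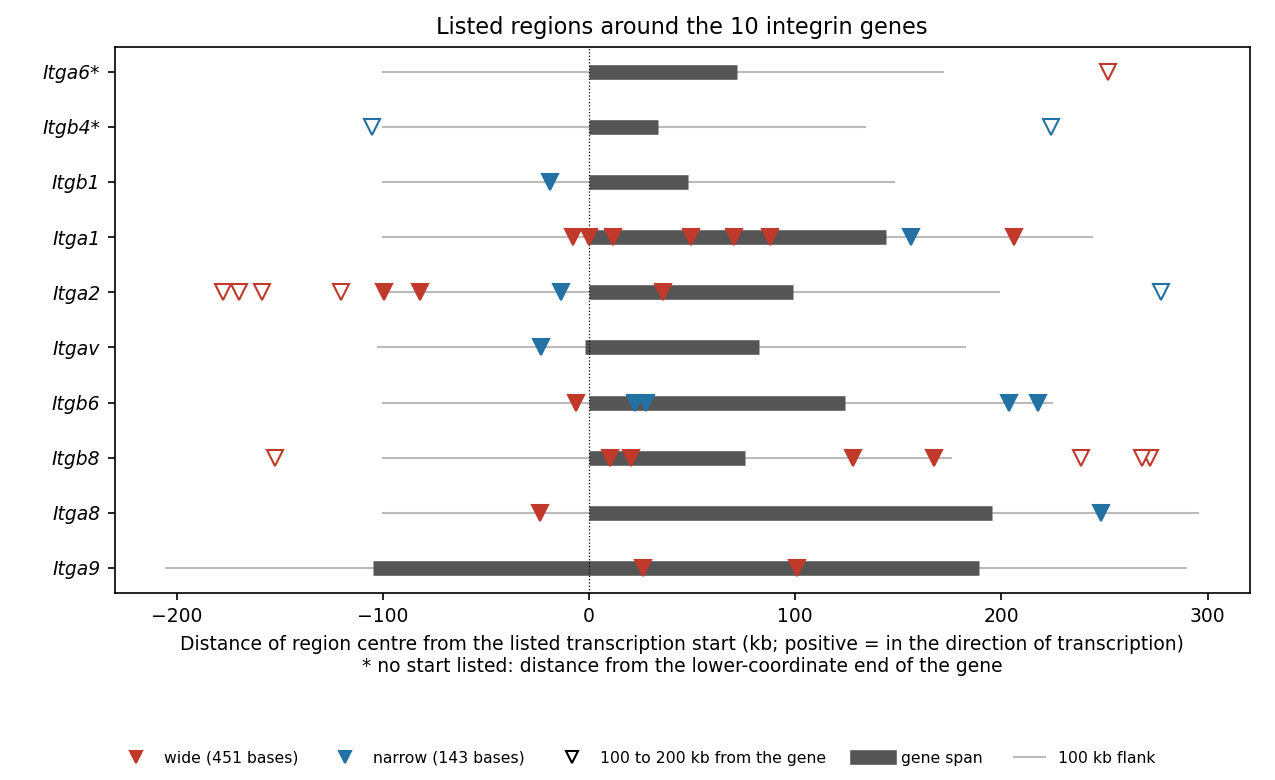
Position of each listed region (triangles, red for wide and blue for narrow) along the 10 integrin genes, as distance in kb from the listed transcription start, with the gene span as a dark bar and the 100 kb flanks as a thin line; for Itga6 and Itgb4, marked with an asterisk, distance is from the lower-coordinate end of the gene. Open triangles lie 100 to 200 kb away and were not counted, and every triangle of Itga6 and Itgb4 is open.

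Regions in the list come in fixed widths of about 0.45 kb, called wide below, and about 0.14 kb, called narrow, apart from a single region of a width in between that was at none of these genes. What the widths stand for is not given in the sources used here. Of the 23 regions at integrin genes, 15 (65.2%) were wide and 8 were narrow, while 50.6% of the whole list was wide. Inside the integrin genes the split was 10 wide against 2 narrow, and outside them 5 against 6. Of the 10 wide ones inside, 5 lay in Itga1. The wide share among regions inside all protein-coding genes was not computed. Itga1 and its neighbour Itga2 supplied 7 of the 15 wide regions. The genes differed in width. All 4 regions at Itgb8 and both at Itga9 were wide, whereas the single regions at Itgb1 and Itgav and 4 of the 5 at Itgb6 were narrow.

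**Figure D2:**
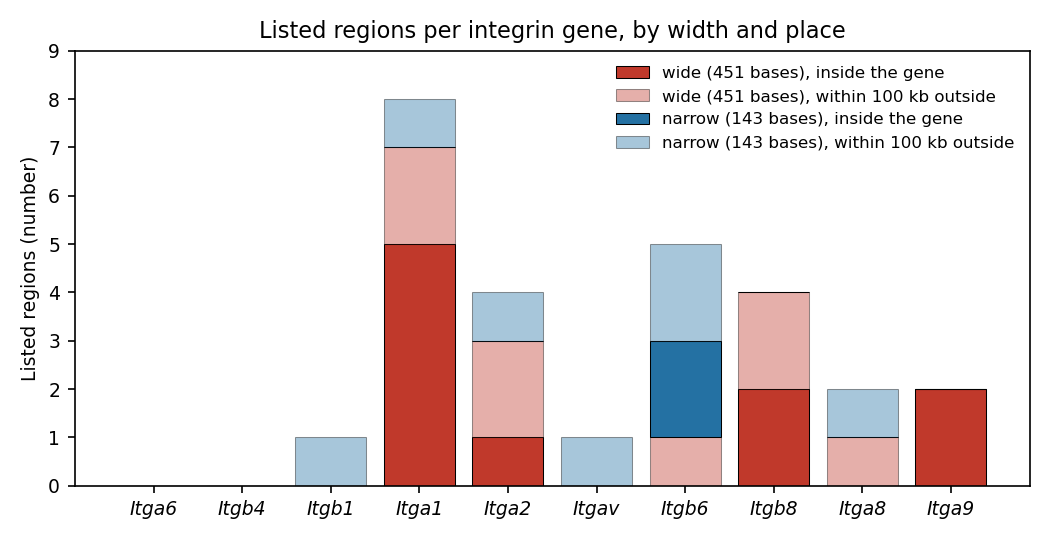
Number of listed regions at each of the 10 integrin genes, stacked by width and by place, with full colour for regions inside the gene and pale colour for those within 100 kb outside it. Itga1 has 8 and Itga6 and Itgb4 have 0; 4 regions are counted at both Itga1 and Itga2.

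Itga1 had more regions than any other of the 10 genes, 8 of the 23, and 3 of them lay on or just before annotated transcription starts. These are the starts of Itga1 itself, of Pelo, a gene for a ribosome rescue factor nested inside the Itga1 span, and of Gm41075, a long non-coding RNA gene upstream of Itga1. The 250 bases before each start are shown from RefSeq (GRCm38.p6, the assembly of mm10), 5′ to 3′ on the strand of the gene, because they place the regions against the promoters. Capitals mark the bases that lie inside the listed region.
Itga1, chr13:115101965-115102214, minus strand: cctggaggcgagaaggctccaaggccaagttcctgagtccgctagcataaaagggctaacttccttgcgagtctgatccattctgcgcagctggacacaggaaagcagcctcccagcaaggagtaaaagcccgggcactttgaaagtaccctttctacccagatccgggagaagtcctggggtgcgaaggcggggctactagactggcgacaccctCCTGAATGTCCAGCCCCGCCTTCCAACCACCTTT
Pelo, chr13:115090159-115090408, minus strand: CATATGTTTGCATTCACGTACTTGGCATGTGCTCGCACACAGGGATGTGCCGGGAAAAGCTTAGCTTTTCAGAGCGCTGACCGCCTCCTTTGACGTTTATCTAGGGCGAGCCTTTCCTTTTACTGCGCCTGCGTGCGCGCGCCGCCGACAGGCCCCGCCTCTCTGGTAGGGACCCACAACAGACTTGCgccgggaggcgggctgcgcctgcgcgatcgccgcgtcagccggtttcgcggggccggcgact
Gm41075, chr13:115109625-115109874, plus strand: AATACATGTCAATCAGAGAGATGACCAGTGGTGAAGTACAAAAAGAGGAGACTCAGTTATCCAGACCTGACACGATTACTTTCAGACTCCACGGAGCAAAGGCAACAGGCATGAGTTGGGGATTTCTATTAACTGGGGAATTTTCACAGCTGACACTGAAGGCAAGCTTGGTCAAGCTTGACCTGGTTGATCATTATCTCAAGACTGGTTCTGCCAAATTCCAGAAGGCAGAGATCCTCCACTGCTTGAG

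The Itga1 region (chr13:115101548-115101998) covered the start site and reached 34 bases into the sequence before it, with the rest of it inside the gene. The Pelo region (chr13:115090221-115090671) did not cover the Pelo start. It took in 188 of the 250 bases before it and left out the 62 next to the start. All 250 bases before the Gm41075 start lay in a region (chr13:115109525-115109975), which covered that start as well. The sequences differ in composition: G and C make up 57.6% of the printed Itga1 stretch, 63.6% of that of Pelo and 45.6% of that of Gm41075, and the CG dinucleotide occurs 10, 29 and 2 times.

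A region overlapped the window from 250 bases before to 50 bases after the start in 516 of the 17492 protein-coding promoters of that table (2.95%). Of the 10 integrin genes, 8 matched the table, and Itga1 was the only one of the 8 whose window was overlapped. Itga6 and Itgb4 were not matched. A search of the Itga1 and Pelo windows on both strands found none of 8 short motifs. These were AP-1 (TGANTCA, in 7.08% of protein-coding promoter windows), the NF-kB consensus (8.86%), the androgen receptor half-site (AGAACA, 16.4%), RUNX (TGTGGT, 15.1%), SP1/KLF (GGGCGG, 46.3%), TEAD (GGAATG, 13.4%), STAT (TTCNNNGAA, 7.83%) and C/EBP (TTGCNNAA, 10.1%). The Gm41075 window held the half-site once, after its start. The absence of a match says only that these letters are not in these windows.

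The collagen receptor genes Itga1 and Itga2 lie side by side on chromosome 13, 26.0 kb apart and both on the minus strand. Their products each pair with the beta1 chain and bind collagens. Itga1 (NCBI gene 109700) spans 144 kb, from 114958079 to 115101964, and had 8 regions, 7 wide and 1 narrow. Only 15 of the 21887 protein-coding genes (0.0685%) had 8 or more regions by the same rule.

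Inside Itga1 lay 5 regions, all wide. A count of 5 or more inside the span was reached by 44 protein-coding genes (0.201%). Their centres were 0.191, 11.5, 49.7, 70.4 and 87.7 kb into the gene from its start, so that they covered the first 61.0% of the span and left the rest without one. Gaps between neighbours ranged from 11.3 to 38.2 kb, so the 5 do not form one tight cluster. The one 11.5 kb into the gene is the region next to Pelo. The Gm41075 region was 7.79 kb upstream of Itga1. A narrow region (chr13:114945764-114945906) was 12.2 kb beyond the 3′ end of Itga1, in the stretch between the genes.

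Itga2 (NCBI gene 16398, 114833081 to 114932100, 99.0 kb) held a single region inside its span, a wide one (chr13:114895818-114896268), 36.1 kb from its start. All 4 of its regions also counted at Itga1, the one inside Itga2 at 62.0 kb from Itga1. The narrow region between the genes was 13.7 kb upstream of the Itga2 start and, at 12.2 kb from Itga1, slightly nearer to that gene. The other 2 were inside Itga1, 82.1 and 99.5 kb from Itga2. The last of these was the region closest to the 100 kb limit on its inner side. The whole set of 8 regions at both genes stretched over 214 kb.

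The laminin receptor genes stood at the other end. Itga6 (NCBI gene 16403, chromosome 2, 71786886 to 71858427), which encodes CD49f of the sort gate, had no region inside it or within 100 kb. The nearest was a wide region 180 kb away (chr2:72038500-72038950) inside Rapgef4, a gene for a cAMP-activated exchange factor, and on the other side the nearest was 575 kb away. Itgb4 (NCBI gene 192897, chromosome 11, 115974725 to 116008412), whose product pairs with that of Itga6 in hemidesmosomes, also had none. Its nearest region was narrow and lay inside the myosin gene Myo15b, 105 kb away (chr11:115869503-115869645), just beyond the limit. On its other side the nearest was 190 kb away. Both genes of the hemidesmosomal receptor were thus without a region, as were 57.3% of all protein-coding genes. Absence from the list says only that nothing there met the unstated thresholds of the authors. It does not show that chromatin at these genes was the same in both groups.

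Itgb1 (NCBI gene 16412, chromosome 8, 128685654 to 128733579) encodes the beta1 chain, the partner of the alpha1, alpha2, alpha6, alpha8 and alpha9 chains among others. It had a single region, a narrow one (chr8:128666735-128666877), 18.8 kb upstream of its start. No other protein-coding gene lies within 100 kb of Itgb1, and on its far side the next region was 532 kb away. The shared beta chain thus had fewer regions than Itga1, Itga2, Itga8 and Itga9 among the genes for its alpha partners.

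The genes for alphav and its TGF-beta-activating partners beta6 and beta8 had 10 regions between them. Itgav (NCBI gene 16410, chromosome 2, 83722303 to 83806917), which encodes alphav, had only 1, a narrow one (chr2:83700821-83700963), 23.5 kb upstream of its listed start. The partner genes had more, mostly narrow at Itgb6 and all wide at Itgb8.

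Itgb6 (NCBI gene 16420, chromosome 2, 60598292 to 60722603) encodes a beta chain found mainly in epithelia and had 5 regions. Both inside the gene were narrow (chr2:60694695-60694837 and chr2:60700152-60700294), 27.8 and 22.4 kb from its start and 5.46 kb apart. They also lie inside Gm33436, a long non-coding RNA gene within the Itgb6 span. Upstream, 6.51 kb from the start, was the only wide region of the gene (chr2:60728884-60729334). The other 2, both narrow, were 79.2 and 93.4 kb beyond its 3′ end and lay inside Pla2r1, which encodes a phospholipase A2 receptor.

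Itgb8 (NCBI gene 320910, chromosome 12, 119162803 to 119238276) had 4 regions, all wide. Inside it were 2 (chr12:119227944-119228394 and chr12:119217877-119218327), 10.1 and 20.2 kb from the start, in the first 26.7% of the span. The others were 52.5 and 91.9 kb beyond its 3′ end (chr12:119110123-119110573 and chr12:119070697-119071147). No other protein-coding gene lies within 100 kb of Itgb8, and each of the 4 had Itgb8 as its nearest protein-coding gene. A count of 4 or more regions was reached by 2.82% of all protein-coding genes, and by Itga1, Itga2, Itgb6 and Itgb8 here. All 4 regions of Itga2 also counted at Itga1, and 2 of the 5 at Itgb6 lay inside Pla2r1. The 2.82% is over genes with a median span of 17.2 kb, against 91.8 kb for the 10. For this count and those given for Itga1, no share over genes of like span was computed.

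Itga8 and Itga9 encode alpha chains that pair with beta1, the first a receptor for nephronectin and the second for tenascin-C among other ligands. Itga8 (NCBI gene 241226, chromosome 2, 12106632 to 12301985) is the second longest of the 10 genes, at 195 kb, and held no region inside. A wide region lay 23.7 kb upstream of its start (chr2:12325411-12325861), slightly nearer to Mindy3, a deubiquitinase gene 21.6 kb from it. A narrow region lay 52.8 kb beyond its 3′ end (chr2:12053773-12053915).

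Itga9 (NCBI gene 104099, chromosome 9, 118606709 to 118901003) is the longest, at 294 kb, and was the reverse. It had 2 wide regions inside it (chr9:118737809-118738259 and chr9:118812121-118812571) and none in its flanks. They were 26.3 and 101 kb downstream of the listed start, which itself lies 105 kb inside the annotated span. The nearest regions outside Itga9 were 548 kb and 1898 kb away.

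Of the 23 regions, 20 had one of the 10 genes as their nearest protein-coding gene, counting an enclosing gene first. The selection favours this, since regions were picked by distance to these genes and 12 lay inside them. No such share over all protein-coding genes was computed. The exceptions were the 2 inside Pla2r1 and the one nearer to Mindy3. The region next to Pelo counted for Itga1, which encloses it. Its centre was 0.288 kb from Pelo and 11.5 kb from the nearest end of Itga1. With the nearest gene end taking each region, 17 of the 23 were nearest to an integrin gene. With non-coding genes and pseudogenes included, 8 of the 23 were nearest to, or inside, such a gene, among them Gm41075 and Gm33436 and the pseudogene Gm18921 downstream of Itgb8. Of the 12 regions inside integrin genes, 10 lay in the part of the span before its midpoint, counted from the 5′ end. For all regions inside protein-coding genes with a listed strand, that share was 57.5% of 2433. Exons and introns could not be told apart with the annotation used.

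The density of regions varied along with these counts. The 10 spans together measure 1170 kb and held 12 regions, or 1.03 per 100 kb, against 0.300 per 100 kb of all protein-coding span. Itga1 alone stood at 3.47 per 100 kb, Itgb8 at 2.65, Itgb6 at 1.61, Itga2 at 1.01 and Itga9 at 0.680. Without Itga1 the other genes held 7 regions, or 0.682 per 100 kb. The 16 integrin subunit genes outside the 10 stood at 0.135 per 100 kb, and all 26 subunit genes together at 0.681. The 10 were picked with earlier results known, so their density is a description.

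The 16 remaining integrin subunit genes carried fewer listed regions than the 10. Of them, 5 had a region, 31.25%, against 42.7% of all protein-coding genes, and only Itga10, a collagen receptor chain, had one inside its span (chr3:96650062-96650204). Of their 7 regions, 6 were narrow and 1 was wide. Itgb5, another partner of alphav, had 3 narrow regions, 51.5 to 90.4 kb away and nearer to Heg1 or Kalrn. Itga7, a laminin receptor chain, and Itgb7, a leukocyte integrin chain, had 1 each, 22.9 and 46.1 kb away. The fibronectin receptor gene Itga5 had its nearest region 147 kb away and the laminin receptor gene Itga3 327 kb away. Itga11, like Itga10 a collagen receptor gene, had no region within 100 kb, and its nearest was 869 kb away. The 10 had been chosen with their regions known, so the contrast between the 10 and the 16 is no finding.

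**Figure D3:**
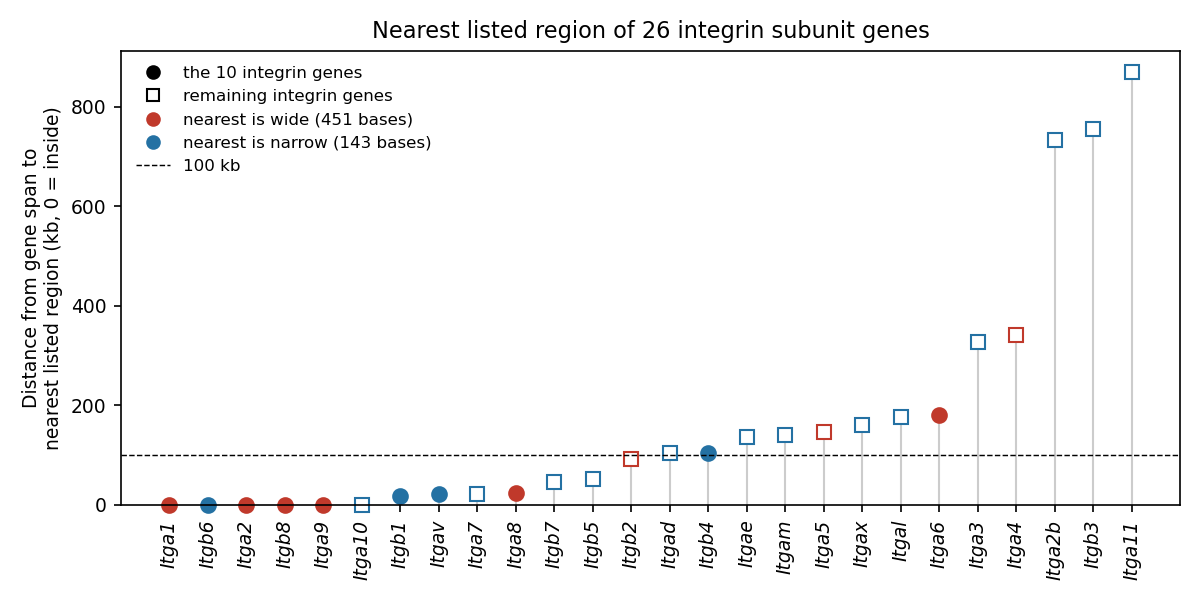
Distance in kb from the gene span to the nearest listed region for 26 integrin subunit genes, with 0 for a region inside; filled circles are the 10 integrin genes and open squares the remaining 16, coloured by the width of that region, and the dashed line is the 100 kb limit. Itgb4 at 105 kb and Itga6 at 180 kb are the filled circles above the line.

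Leukocyte and endothelial genes were looked at because the gate should leave such cells out. The leukocyte integrin genes Itgal, Itgam, Itgax, Itgad and Itgae had no region within 100 kb, and Itgb2 had 1, a wide one, 92.9 kb away and nearer to Ube2g2. Itgb7, as given above, had 1 at 46.1 kb, and Itga4 had none. Over all protein-coding genes, 57.3% had none. Among the genes of the sort gate, Ptprc (CD45) had 1 region, 76.1 kb outside it, Pecam1 (CD31) had 1, 73.5 kb away with Ddx5 as its nearest gene, and Ly6a (Sca-1) had 2 narrow ones, the nearer 87.6 kb away. None of the 4 gate genes, Itga6 among them, held a region inside its span. The endothelial genes Cdh5 and Kdr had 2 and 0 regions. Of the basal keratin and transcription factor genes, Krt5 had 1, a narrow one 12.6 kb away with Krt6a as its nearest gene. Krt14 had 6, all narrow and none inside the gene, the nearest 14.4 kb away. Trp63 had 6, with 2 inside the gene. A count of 4 or more was reached by 2.82% of all protein-coding genes. Positions in such a list say nothing of which cells were present, and the part of other cell types was not tested.

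Around the receptors, the genes for their matrix ligands had regions more often than those for the hemidesmosome, where 1 of only 4 genes had one. That difference was not tested, and the lists were drawn up by role, with earlier results of these data known. Of 26 ligand genes, 21 (80.8%) had a region, with a median of 1 per gene, and 9 (34.6%) had one inside the span. Over all protein-coding genes these shares were 42.7% and 10.2%. Over those with a span in the range of the 10 integrin genes they were 54.7% and 21.8%. The 26 include all 11 laminin chain genes, 10 of them with a region and 6 with one inside. The ligand shares thus rest in part on that family, and no share over the other ligand genes was computed. Ltbp1, which encodes a protein that holds latent TGF-beta in the matrix, had 5 regions, all inside the gene, 4 narrow and 1 wide. Its span of 387 kb is longer than that of any of the 10 integrin genes. The narrow regions chr17:75110585-75110727 and chr17:75111037-75111179 lie within 1 kb of each other. A count of 5 or more inside the span was reached by 0.201% of all protein-coding genes. Npnt, the gene for nephronectin, had 3. One of these, a wide one, was centred 0.184 kb inside an end of the gene (chr3:132949882-132950332).

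The laminin chain genes Lama4 and Lama1 had 3 regions each, with 2 inside the span in both. Those inside Lama4 (chr10:38979039-38979181 and chr10:38979616-38979758) lie within 1 kb of each other. All regions of Lama1 were wide. Over the laminin gene family, 10 of 11 genes (90.9%) had a region and 6 (54.5%) had one inside. All 11 are also among the 26 ligand genes above. Over 44 collagen genes, 23 (52.3%) had a region and 11 (25.0%) had one inside. The collagen shares were close to the 54.7% and 21.8% of genes with a span in the range of the 10. All protein-coding genes stood at 42.7% and 10.2%. The 10 integrin genes, at 8 and 5, lay between the laminin and collagen families in the share with a region, and the differences were not tested.

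The next list held 27 genes for talins, kindlins, adaptors and kinases that bind integrin tails or act behind them. Of these, 18 (66.7%) had a region, with a median of 1 per gene, and 6 (22.2%) had one inside. The shares were 42.7% and 10.2% over all protein-coding genes. Over genes with a span in the range of the 10 they were 54.7% and 21.8%, so the inside share was close to that of such genes. Kank1, which encodes an adaptor at the rim of adhesions, had 4, with 2 wide ones inside it. Pxn, the gene for the scaffold paxillin, had 2 narrow ones, 7.49 and 11.7 kb away and nearer to Sirt4. Tns3, a tensin gene, had 2 narrow ones, 1 of them inside. Tln1, the gene for the integrin activator talin, had 2, 16.7 and 42.4 kb away. Of the 4 hemidesmosome genes, Col17a1, which encodes the transmembrane collagen of hemidesmosomes, had a narrow region inside it (chr19:47650955-47651097). Plec, Dst and Cd151 had none, and neither, as given above, had Itga6 and Itgb4. Over all protein-coding genes, 57.3% had none.

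**Figure D4:**
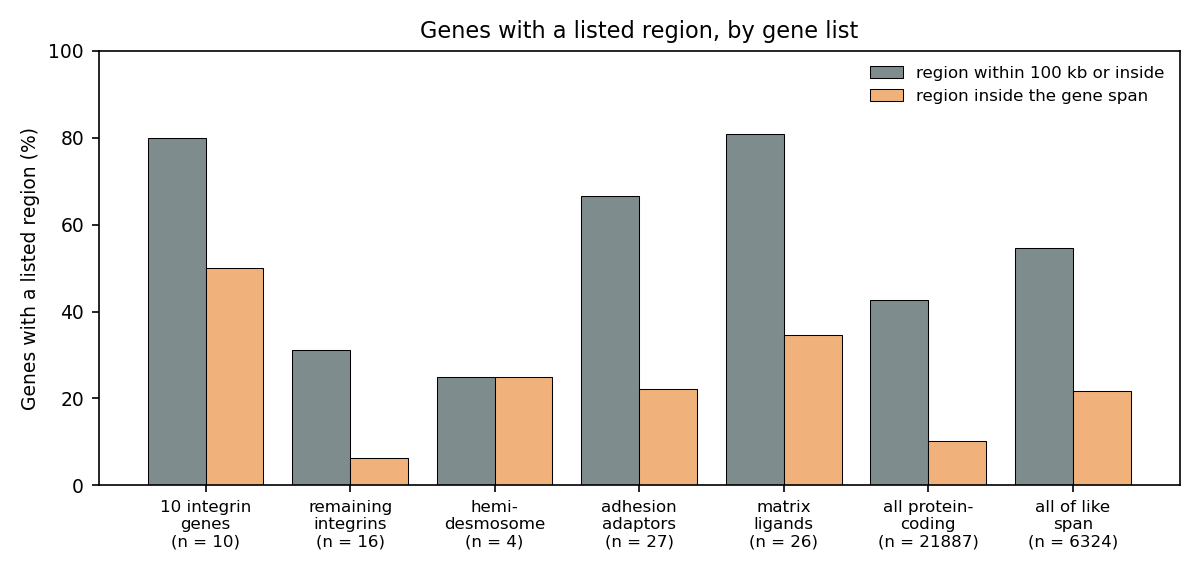
Share of genes (%) with a listed region inside or within 100 kb of the span (grey) and inside the span (orange), for the 10 integrin genes, 4 lists of related genes, all 21887 protein-coding genes and the 6324 with a span in the range of the 10 (labelled as of like span). The 10 integrin genes stand at 80.0% and 50.0%, and the remaining integrins at 31.25% and 6.25%.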

How the data were processed

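ATAC-seq libraries of 3 naive and 3 inflamed samples are represented by 1 merged list of 6502 regions. The authors deposited chromosome, start and end coordinates only. Of the regions, 3291 are 451 bases wide (wide), 3210 are 143 bases wide (narrow) and 1 is 235 bases wide. Per the submitters' processing notes, BWA 0.7.17-r1188, SAMtools, HOMER 4.8 and edgeR were used with mm10; their order, thresholds and whether libraries were pooled are not given in the sources used here. Replicate spread and depth cannot be had from such a list, and no test was run.

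Starts, counted from 0, are printed from 1. Gene spans came from RefSeq (GRCm38.p6); transcription starts and promoter sequences from its promoter table, where 8 of the 10 integrin genes matched. Each region was placed by its centre. Its nearest gene was the shortest enclosing protein-coding gene, or else the one with the nearest end. The members, the gene lists and the motifs were chosen with earlier results of these data known. Genes outside the 10 are named where nearest to a region, as gate genes or as cell type markers. Others are among the 4 with most regions in a list. Ties were broken by the region closest to a gene end, which decided 3 of the 4 adaptor genes. Itga3, Itga4, Itga5, Itga11, further leukocyte integrins and members without regions were named after their values were seen. Placement code was tested on simulated data. Python 3.11.15, pandas and numpy were used. Alternatives were windows of 0, 20, 50 and 200 kb, placement by overlap, merging within 1 kb, each width alone and other nearest-gene rules.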

Additional observations from a re-analysis of the deposited data

How the results depend on the processing

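No paired analysis was possible because the regions carry no signal for single libraries. For the same reason no library could be left out. With only regions whose centre is inside a span counted, the 23 regions at integrin genes became 12, the 8 genes with a region became 5, the 20 regions nearest to an integrin gene became 12, and the 45 of 73 related genes with a region became 17. With wide regions alone, the regions at integrin genes numbered 15 and the related genes with one 17. With narrow regions alone, the regions at integrin genes numbered 8 and those nearest to an integrin gene 6. Fewer regions enter each of these by construction. With non-coding genes and pseudogenes allowed as nearest gene, 13 of the 23 were nearest to an integrin gene. The other 27 of 36 recomputed values stayed within 1.5 times the main one. At 200 kb all 10 genes had a region, Itga6 and Itgb4 included, and at 50 kb the same 8 as at 100 kb. The share of all protein-coding genes with a region was not computed at 50 or 200 kb, so these counts have no background.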
